A study of Bos grunniens and Bos grunniens x Bos taurus with 6 samples.

Results

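The calpain system of longissimus dorsi, the main muscle of the loin, was described in yak and in cattle-yak, the hybrid of yak and cattle. Its members were the calpain genes CAPN1, CAPN2, CAPN3 and CAPN7, the small subunit gene CAPNS1 and the calpastatin gene CAST. For each, the gene identifier with most pooled reads among rows of that symbol was taken, and all transcripts of the identifier were summed. This found 5 of the 6 genes among 31044 gene identifiers. No row carried the symbol CAPN3 in the table used here, so CAPN3 is not analysed here. The yak group (Bos grunniens) and the cattle-yak group (Bos grunniens x Bos taurus) had 3 libraries each, named yak 1 to 3 and cattle-yak 1 to 3. The labels name no treatment, and the sources used here do not give the direction of the cross, age, sex or feeding. Whether the libraries of a group are separate animals is not stated either: p-values then cover only the spread between these 6 libraries, which may be technical.

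Calpains are cysteine proteases that calcium switches on. Calpain-1 and calpain-2 each pair their own large catalytic subunit with the shared small subunit encoded by CAPNS1, and calpastatin is their specific inhibitor. After slaughter calpain-1 cuts proteins of the myofibril and of the links between the myofibril and the cell membrane, and calpastatin slows this, which is why the balance of both is studied in beef tenderness. Calpain-7 belongs to the calpains that lack the calcium-binding domain of the classical enzymes and is linked to endosomal sorting.

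Each library held 2350851 to 2769106 counted nanopore reads, and the calpain genes took only 2135 reads over all 6 libraries. Their summed share was 0.0129% to 0.0141% of a yak library and 0.0132% to 0.0176% of a cattle-yak library. Markers of skeletal muscle were abundant in every library, with a summed level of 144255 to 154379 CPM, the read count scaled for depth, in yak and 124537 to 137185 CPM in cattle-yak over 8 genes. Values with ± are the mean and SD over the 3 libraries of a group, and for log2 differences (cattle-yak over yak, as fitted by edgeR or as a difference of mean log2 ratios) the estimate and its SE. Levels are TMM-scaled CPM, in which edgeR's trimmed mean of M-values corrects for differences in library make-up, and a level near 1 CPM rests on 2 or 3 reads. A count is 1 long read of an unfragmented cDNA or of a PCR copy of it, so levels were not divided by transcript length. Whole tissue was sequenced, so a lower or higher share of a cell type and less or more RNA per cell cannot be told apart.

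No calpain or calpastatin gene passed the test between the groups. Of the 5 genes found, 4 had enough reads to be tested, and 0 of these 4 passed edgeR's quasi-likelihood test (adjusted p under 0.05), against 12.6% of the 7504 genes tested. CAPN2 alone had an unadjusted p under 0.05, as did 27.9% of all genes tested. DESeq2 and limma-voom likewise called 0 of the 4. The levels of CAPN2 and CAPNS1 did not overlap between the groups, as for 32.9% of genes tested, and both were higher in cattle-yak, as for 16.4%. The levels of CAPN1, CAPN7 and CAST overlapped.

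CAPN2 encodes the catalytic subunit of calpain-2, which needs more calcium than calpain-1. It had 37, 28 and 32 reads in the yak libraries against 62, 55 and 57 in cattle-yak. Every cattle-yak library thus held more CAPN2 reads than any yak library. Its level was 14.1 ± 2.05 CPM in yak and 22.0 ± 1.82 CPM in cattle-yak. The log2 difference was 0.65 ± 0.24 (edgeR adjusted p = 0.0984), with a 95% interval of 1.09-fold to 2.25-fold before correction over all genes. Over 16 alternative fits its log2 difference stayed between 0.52 and 0.81, with adjusted p from 0.0514 to 0.434.

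CAPN1 encodes the catalytic subunit of calpain-1, the protease most tied to tenderness. It had 15, 23 and 28 reads in the yak libraries against 28, 16 and 16 in cattle-yak. Yak 1 sat with the lower cattle-yak libraries and cattle-yak 1 with the higher yak libraries, so the groups overlapped. The level was 9.61 ± 2.95 CPM in yak and 7.61 ± 2.81 CPM in cattle-yak, a log2 difference of -0.33 ± 0.36 (edgeR adjusted p = 0.601). The 95% interval ran from 0.464-fold to 1.37-fold. Without cattle-yak 1 the log2 difference was -0.67, and without yak 3 it was -0.12.

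CAPNS1, the regulatory subunit shared by calpain-1 and calpain-2, had 62, 66 and 53 reads in the yak libraries against 80, 89 and 94 in cattle-yak. The lowest cattle-yak library was above the highest yak library. Its level was 26.3 ± 2.51 CPM in yak and 33.2 ± 1.94 CPM in cattle-yak. The log2 difference of 0.34 ± 0.20 did not pass (edgeR adjusted p = 0.289), and its 95% interval was 0.944-fold to 1.71-fold.

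CAST encodes the inhibitor. It had the most reads of the genes found, 196, 229 and 193 in yak and 199, 249 and 196 in cattle-yak. Yak 2 and cattle-yak 2 were the highest library of their groups. Its level was 89.8 ± 7.44 CPM in yak and 81.6 ± 13.9 CPM in cattle-yak. The log2 difference was -0.13 ± 0.18 (edgeR adjusted p = 0.686), and the 95% interval of 0.702-fold to 1.19-fold was the narrowest of the 4. Scaled by library size only, the median of all genes moved from 0.02 to 0.18 (log2) and CAST came to 0.04.

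**Figure D1:**
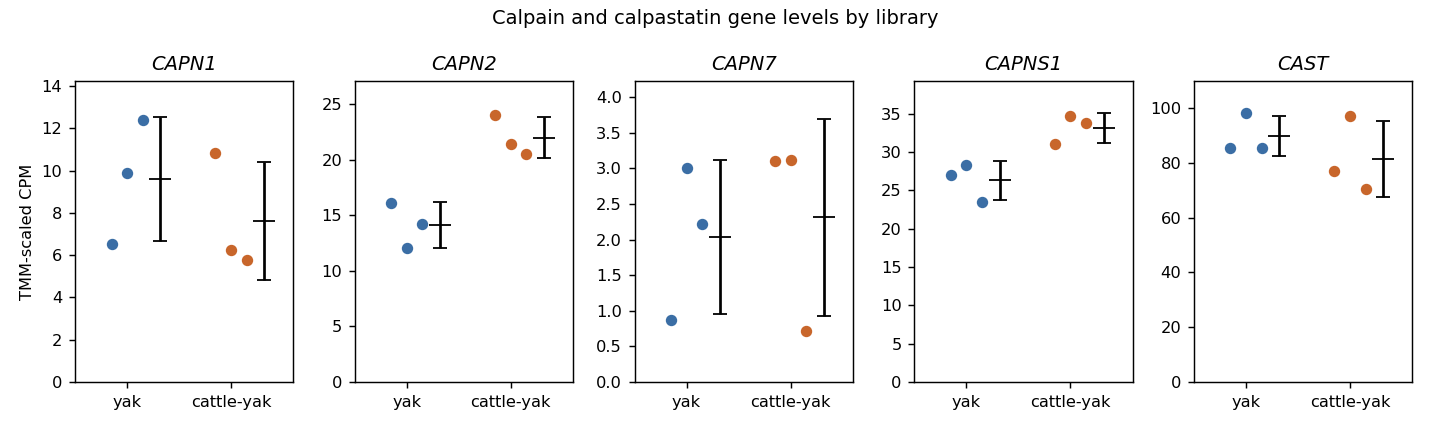
Level of each gene found, in TMM-scaled CPM on an axis from 0, for the 3 yak (blue) and 3 cattle-yak (orange) libraries, replicates 1 to 3 from left to right. Bars show the mean and SD; CAPN2 and CAPNS1 do not overlap between the groups, CAPN1, CAPN7 and CAST do.

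**Figure D2:**
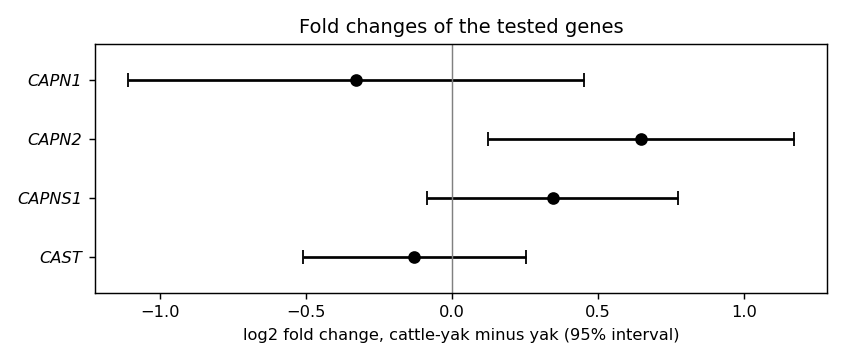
Log2 fold change of cattle-yak over yak for the 4 genes tested, with 95% intervals from edgeR before correction over all genes. The interval of CAPN2 lies above 0, and those of CAPN1, CAPNS1 and CAST include 0.

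CAPN7 was close to the limit of these libraries, with 2, 7 and 5 reads in the yak libraries against 8, 8 and 2 in cattle-yak. It did not pass the filter on low counts and was not tested. Both groups held a library with 2 reads, and the levels of 2.03 ± 1.08 and 2.31 ± 1.38 CPM overlapped. With no filter its log2 difference was 0.05 ± 0.67 (edgeR adjusted p = 0.967). In that fit the median log2 difference of all genes was 0.24, against 0.02 in the main fit.

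Of 11 other calpain family genes looked up by symbol, 3 were found and none reached the filter. CAPN5, a calpain with no calcium-binding penta-EF-hand domain, had 7, 5 and 3 reads in the yak libraries against 2, 3 and 3 in cattle-yak. Its level was lower in cattle-yak without overlap, at 0.775 to 1.17 CPM against 1.33 to 3.05 CPM, but only through scaling. Yak 3, cattle-yak 2 and cattle-yak 3 held 3 reads each. CAPN6, whose protein lacks the catalytic cysteine, had 4, 0 and 3 reads in the yak libraries against 10, 6 and 7 in cattle-yak, where every library was above every yak library. CAPN10 had 2 reads in all, both in cattle-yak 1. No fold is given for these because their counts are so low.

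The order of the levels was the same in both groups, on the scale of read counts not divided by length. CAST came first, followed by CAPNS1, CAPN2, CAPN1 and CAPN7. In yak the neighbours CAPN2 (12 to 16.1 CPM) and CAPN1 (6.54 to 12.4 CPM) overlapped over the 3 libraries, and the other neighbours did not. In cattle-yak no neighbours overlapped: CAPN2 ranged from 20.5 to 24.0 CPM and CAPN1 from 5.75 to 10.8 CPM. CAPN2 made up 71.2%, 54.9% and 53.3% of the reads of both catalytic subunits in yak, and 68.9%, 77.5% and 78.1% in cattle-yak. Yak 1, with a share above that of cattle-yak 1, made the groups overlap.

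The ratio of each gene's reads to calpastatin reads is taken within a library and does not depend on library scaling. It compares RNA reads, not protein or activity. Only the ratios of CAPN1, CAPN2 or both set a catalytic subunit against its inhibitor. For CAPN2 the ratio was 0.189, 0.122 and 0.166 in yak and 0.312, 0.221 and 0.291 in cattle-yak. All 3 cattle-yak libraries were above the yak libraries. The log2 ratio differed by 0.80 ± 0.24 (two-sided exact permutation p = 0.1, adjusted over 5 ratios 0.25). With 3 against 3 libraries the exact test cannot go below p = 0.1, so no ratio could pass. Over reads in rows with the gene's own symbol only, the groups overlapped, at 0.197, 0.128 and 0.198 against 0.355, 0.186 and 0.344 (log2 difference 0.72, exact permutation p = 0.3).

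The ratio of CAPNS1 to CAST was 0.316, 0.288 and 0.275 in yak and 0.402, 0.357 and 0.480 in cattle-yak. Here the groups did not overlap, also over own-symbol rows, with a log2 difference of 0.49 ± 0.14 (exact permutation p = 0.1, adjusted 0.25).

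The ratio of CAPN1 to CAST, the pair most used in tenderness work, was 0.0765, 0.10 and 0.145 in yak and 0.141, 0.0643 and 0.0816 in cattle-yak. The groups overlapped, and the log2 difference of -0.20 ± 0.43 was smaller than its error (exact permutation p = 0.7, adjusted 0.7). It turned to 0.04 without yak 3 and to 0.05 without cattle-yak 2. For both catalytic subunits together the ratio was 0.266 ± 0.044 in yak and 0.370 ± 0.084 in cattle-yak (exact permutation p = 0.2, adjusted 0.333). The CAPN7 ratio was 0.022 ± 0.011 and 0.028 ± 0.016 (exact permutation p = 0.6, adjusted 0.7).

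**Figure D3:**
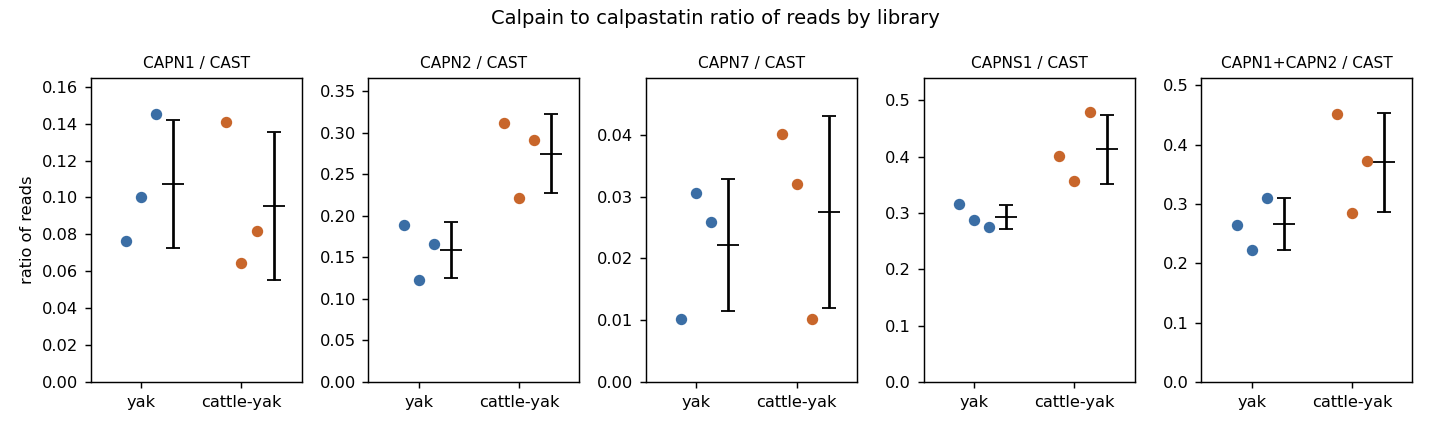
Ratio of reads of each calpain gene to reads of CAST in each library, on axes from 0, with the mean and SD beside the 3 libraries of yak (blue) and cattle-yak (orange), replicates 1 to 3 from left to right. The CAPN2 and CAPNS1 ratios are higher in all 3 cattle-yak libraries, and the other ratios overlap.

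Reads of both catalytic subunits together against CAPNS1, their common partner, gave 0.915 ± 0.191 in yak and 0.900 ± 0.195 in cattle-yak. The range was 0.773 to 1.13 in yak and 0.777 to 1.13 in cattle-yak, so the groups overlapped almost fully.

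The reads of the calpain genes were spread over 113 transcripts, all but 2 of them assembled from the reads and not in the reference. CAPN1, CAPN2 and CAST had no reference transcript among their rows, and the CAPN1 gene itself carried an assembled identifier (TALONG000097572). Own-symbol transcripts held 84.1% of the CAPN1 reads, 70.1% of CAPN2, 87.4% of CAPNS1 and 65.5% of CAST, while the rest carried no symbol. Among the transcripts, 9 had enough reads to be tested and 0 passed (edgeR), against 18.5% of the 15804 transcripts tested (9.64% higher and 8.86% lower in cattle-yak). DESeq2 and limma-voom also called 0. The transcript with an unadjusted p under 0.05 was TALONT000076461 of CAPN2, against 31.7% of all transcripts tested.

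TALONT000076461 carried neither symbol nor description and was the largest CAPN2 transcript, with 29.9% of the gene's reads. It had 9, 9 and 7 reads in the yak libraries against 18, 26 and 12 in cattle-yak. All 3 cattle-yak libraries were higher, with a log2 difference of 0.99 ± 0.42 (edgeR adjusted p = 0.12). Its share of CAPN2 reads overlapped, at 26.1% ± 5.36 and 32.5% ± 13.4. The next transcript, TALONT000075968, varied within both groups: it had 15, 2 and 9 reads in the yak libraries against 17, 3 and 9 in cattle-yak. Of the smaller CAPN2 transcripts, TALONT000076249 had 1, 2 and 1 reads against 4, 6 and 6. TALONT000076372 had 3, 2 and 1 against 1, 1 and 0, TALONT000076449 had 2, 1 and 1 against 1, 1 and 1, and TALONT000076184 had 1, 2 and 1 against 0, 1 and 1. The levels of these last 3 were lower in cattle-yak without overlap, on at most 8 reads each, but only through scaling. Each had libraries of both groups with the same count of 1 read. None of these smaller transcripts was tested. Levels without overlap were found for 36.8% of the transcripts tested (17.8% higher and 19.0% lower in cattle-yak).

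In CAST, 5 of 54 transcripts held at least 5% of the reads each and 59.4% together. The largest, TALONT001447294, had no symbol and held 23.3% ± 3.52 of CAST reads in yak and 21.9% ± 1.96 in cattle-yak. TALONT001445718, described in the deposited table as calpastatin isoform I of Bos grunniens, held 14.1% ± 3.69 and 17.8% ± 3.03. TALONT001445753 and TALONT001445725, with the same description, held 9.30% ± 1.73 and 6.94% ± 2.77 in yak and 7.49% ± 2.08 and 5.90% ± 1.82 in cattle-yak. TALONT001447017, described as isoform X1 of Bos mutus, the wild yak, held 5.20% ± 0.88 and 6.90% ± 1.27. The shares of all 5 overlapped between the groups and varied between libraries, that of TALONT001445718 from 10.5% in yak 2 to 20.9% in cattle-yak 3.

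Calpastatin is made in several types that differ at the amino-terminal end through alternative first exons. Reads in the 12 transcripts described as isoform I made up 34.2% ± 9.23 of CAST in yak and 35.9% ± 1.58 in cattle-yak. The 3 transcripts described as isoform II summed to 27 yak reads and 10 cattle-yak reads, a share of 4.43% ± 2.01 and 1.65% ± 1.31. The lowest yak library (3.06%) and the highest cattle-yak library (3.02%) nearly met. Most of these reads lay in TALONT001447016, with 2, 4 and 12 reads in the yak libraries against 5, 0 and 3 in cattle-yak. This grouping by description was made after the values were seen and was not tested.

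CAPNS1 was split more evenly, with 9 of 16 transcripts at 5% or more. Its only reference transcript, ENSBGRT00000034990, held 9.46% ± 2.63 of the reads in yak and 9.52% ± 3.39 in cattle-yak. TALONT001486422 had 11, 9 and 9 reads in the yak libraries against 8, 6 and 6 in cattle-yak while the gene as a whole had more, and its share was 16.1% ± 2.18 against 7.71% ± 1.99. The shares did not overlap. TALONT001486431 went the other way, from 3.38% ± 1.70 to 6.44% ± 2.22, also without overlap. TALONT001486426, described as a sheep protein, had 2, 0 and 0 reads in the yak libraries against 10, 1 and 10 in cattle-yak, so that cattle-yak 2 stood with the yak libraries. The 3 CAPNS1 transcripts with enough reads to be tested had log2 differences between 0.13 and 0.55 (edgeR adjusted p from 0.495 to 0.873).

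In CAPN1 the 7 transcripts at 5% or more held 68.3% of the reads. TALONT000868942, without symbol or description, had 1, 2 and 2 reads in the yak libraries against 5, 5 and 5 in cattle-yak. Its share was 7.50% ± 1.06 in yak and 26.8% ± 7.73 in cattle-yak, the largest shift in mean share among the 26 transcripts at 5% or more of the 4 tested genes, on 20 reads in all. The largest CAPN1 transcript, TALONT000868965, described as calpain-1 of Bos mutus, had 1, 4 and 7 reads in the yak libraries against 6, 2 and 1 in cattle-yak. None of the CAPN1 transcripts had enough reads to be tested.

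**Figure D4:**
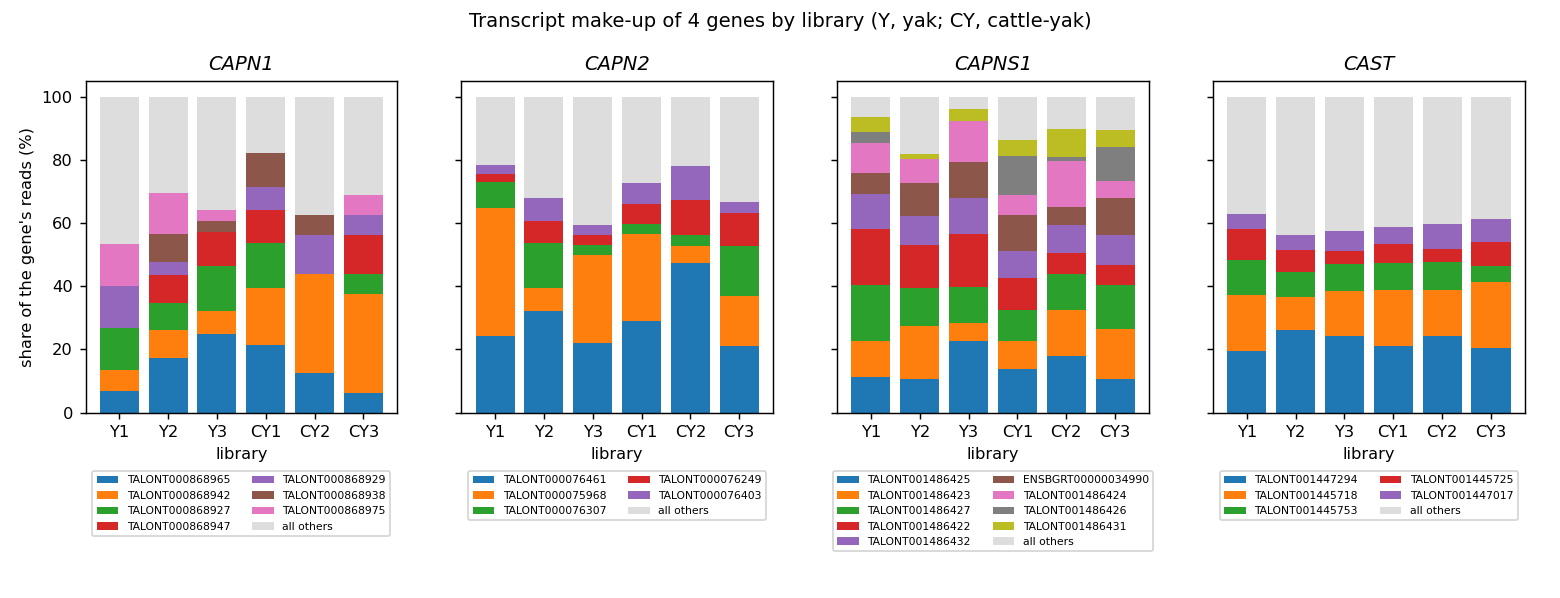
Share of each gene's reads, in percent, held by the transcripts with at least 5% of them, stacked for each of the 6 libraries, with all other transcripts in grey. In CAST the TALONT001445718 part (orange) runs from 10.5% in yak 2 to 20.9% in cattle-yak 3, and in CAPN1 the orange part (TALONT000868942) is larger in the 3 cattle-yak libraries.

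Transcript usage, the make-up of a gene apart from its total, did not pass in any of the 4 tested genes (edgeR's diffSpliceDGE, transcripts at 5% or more), against 2.5% of 5047 genes. CAPNS1 had an unadjusted p of 0.0293 (edgeR adjusted p = 0.258), as under 0.05 in 14.9% of genes. The adjusted p was 0.623 for CAPN1, 0.724 for CAPN2 and 0.792 for CAST. Shares did not overlap between the groups in 3 of the 26 transcripts, against 18.3% of all such transcripts. With no minimum share, CAST passed over all its 54 transcripts (edgeR adjusted p = 0.015), against 4.76% of genes in that fit. Of these 54 transcripts, 6 had reads only in yak and 11 only in cattle-yak, with at most 5 and 6 reads each. Outside these, TALONT001445772 had 5, 6 and 6 yak reads against 0, 0 and 1, a share of 2.76% ± 0.30 against 0.17% ± 0.29. The share of TALONT001445761 was 5.13% ± 1.02 in yak and 3.16% ± 0.81 in cattle-yak, and that of TALONT001445759 was 2.69% ± 1.5 and 5.08% ± 0.92. None of these 3 shares overlapped between the groups, and each transcript held under 5% of the pooled reads. Over all 54 CAST transcripts, shares without overlap were higher in cattle-yak for 3 and lower for 4. The 18.3% above covers only transcripts at 5% or more, and no matching share over smaller transcripts was computed. This count is thus a description and does not bear on the CAST usage call. In a hybrid, a cattle allele assembled as its own transcript cannot be told apart from a change of isoform.

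Many proteins that calpains are known to cut are encoded by abundant genes of the muscle. Of 18 such genes of the myofibril and the costamere, the link from myofibril to membrane, 5 rose in cattle-yak, 1 fell and 12 did not pass (edgeR). The share called over all genes tested was 6.45% higher and 6.18% lower. Their median log2 difference was 0.49, against 0.02 over all genes. This list and those below were chosen with earlier results of these data known. The values over all genes are thus given as a description and not as a test. FLNC, the actin cross-linker filamin C, rose from 324 ± 25.9 to 1058 ± 250 CPM, a log2 difference of 1.72 ± 0.19 (edgeR adjusted p = 0.00012). MYBPC1, slow myosin-binding protein C, fell from 5436 ± 204 to 2514 ± 183 CPM (log2 difference -1.10 ± 0.15, edgeR adjusted p = 0.000506). DES, the intermediate filament desmin that calpain-1 degrades after slaughter, rose by 0.70 ± 0.17 on the log2 scale (edgeR adjusted p = 0.0147).

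The other 3 that rose were the giant spring protein gene TTN (log2 difference 0.64 ± 0.17, edgeR adjusted p = 0.0293), the talin gene TLN1 (0.69 ± 0.18, 0.0225) and the spectrin gene SPTBN1 (0.80 ± 0.22, 0.0312). These calls were less firm. DES lost its call without yak 2 or yak 3 (adjusted p up to 0.0891), and TLN1 when any of yak 1, yak 3 and cattle-yak 1 was dropped (up to 0.104). TTN kept its call only without cattle-yak 3 (up to 0.132), and SPTBN1 only without cattle-yak 1 (up to 0.118), among the fits that left out 1 library. TTN, TLN1 and SPTBN1 also lost theirs with no filter on low counts, and SPTBN1 with limma-voom and with counts summed by symbol. The troponin T gene TNNT3, whose breakdown product is a marker of ageing meat, had a log2 difference of -0.21 ± 0.15 and did not pass (edgeR adjusted p = 0.393).

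**Figure D5:**
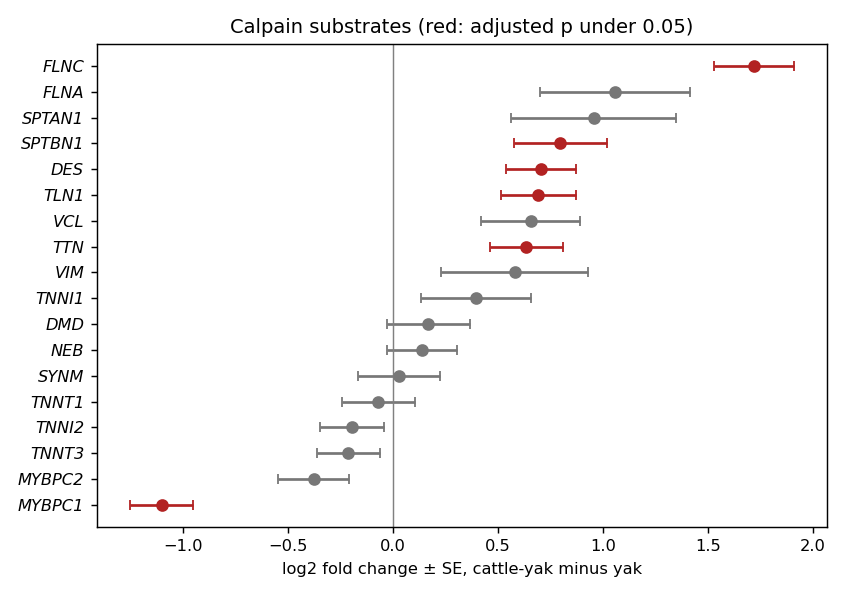
Log2 fold change ± SE of cattle-yak over yak for the 18 tested genes of calpain substrates, with those past an edgeR adjusted p of 0.05 in red. FLNC, DES, TTN, TLN1 and SPTBN1 are red above 0, and MYBPC1 is red below 0.

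Of 12 tested genes of calpain 3 partners and membrane repair, 1 fell (against 6.18% of all genes tested) and 11 did not pass. Their median log2 difference was 0.17. ANXA6, a calcium-dependent membrane-binding annexin of the repair cap, fell from 95.4 ± 7.79 to 44.2 ± 9.56 CPM (log2 difference -1.10 ± 0.19, edgeR adjusted p = 0.00251). RYR1, the calcium release channel, had a log2 difference of 0.44 ± 0.15 (edgeR adjusted p = 0.0789), and the annexin gene ANXA5 one of -0.44 ± 0.22 (0.205).

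Lysosomal cathepsins and their cystatin inhibitors form another proteolytic system of ageing meat. Of 10 tested genes, 2 rose (against 6.45% of all genes tested) and 8 did not pass, with a median log2 difference of -0.03. CTSS, a cathepsin of antigen-presenting cells, rose from 13.1 ± 2.76 to 35.4 ± 12.5 CPM (log2 difference 1.44 ± 0.29, edgeR adjusted p = 0.0057). The 3 tested macrophage markers given at the end, C1QA, C1QB and C1QC, were also higher in cattle-yak by their median. None of them passed, and their levels overlapped between the groups. Their part in the CTSS level was not tested. CSTB, which inhibits cathepsins, rose by 0.98 ± 0.25 on the log2 scale (edgeR adjusted p = 0.0201). That call failed when any of yak 1, yak 2, cattle-yak 2 and cattle-yak 3 was left out (adjusted p up to 0.0837). CTSC had a log2 difference of -0.34 ± 0.19 (0.271).

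Of the caspases and their regulators, the proteases of programmed cell death, 5 genes were tested. With edgeR, DESeq2 or limma-voom 0 passed, against 12.6% of all genes tested in edgeR. An unadjusted p under 0.05 in edgeR was found for 0 of the 5, against 27.9% of all genes tested. The median log2 difference of these 5 genes was -0.41. DIABLO, which releases caspases from inhibition, had a log2 difference of -0.61 ± 0.31 (edgeR adjusted p = 0.217), BIRC2 one of -0.75 ± 0.39 (0.236) and BIRC3 one of -0.41 ± 0.25 (0.32).

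Of 10 tested heat shock and redox genes that have been studied as tenderness markers, 1 rose, 2 fell and 7 did not pass. Over all genes tested 6.45% rose and 6.18% fell. The median log2 difference of the 10 genes was 0.02. CRYAB, the small heat shock protein alpha-B crystallin, rose by 1.58 ± 0.19 on the log2 scale (edgeR adjusted p = 0.000238). With assembled transcripts only its adjusted p was 0.317. PRDX6, a peroxiredoxin, fell by 0.77 on the log2 scale (edgeR adjusted p = 0.00857, 0.142 with assembled transcripts only). DNAJA1, a co-chaperone, fell by 0.76 on the log2 scale (edgeR adjusted p = 0.0255). That call failed when any of yak 1, yak 3 and cattle-yak 2 was left out (adjusted p up to 0.0995), and also with library size alone or counts summed by symbol (up to 0.319).

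Since no calpain gene was called, likeness was described for CAPN1 and CAST, over 6 libraries and named genes with a mean of at least 10 CPM. The levels most like CAPN1 were those of PAAF1 (Pearson r = 0.966), TMEM230 (0.953) and LANCL1 (0.947). Those most like CAST were ERCC3 (0.986), SH3BP4 (0.973) and RAB11A (0.973). These were the closest of 3613 and 3612 genes, on 6 points that share 2 groups and their libraries' depth.

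Calpain-2 and the small subunit are also made in cells other than muscle fibres. Of 8 macrophage markers 3 were tested, C1QA, C1QB and C1QC. With edgeR, DESeq2 or limma-voom 0 passed, against 12.6% of all genes tested in edgeR. Of the 3, 2 had an unadjusted p under 0.05 in edgeR, against 27.9% of all genes tested. The median log2 difference of the 3 was 1.38, with 3 of 3 above 0. In cattle-yak 1 their levels (3.87, 5.81 and 3.49 CPM) lay within the yak range. CD163, a scavenger receptor of macrophages, was not tested and had 1, 0 and 3 reads in the yak libraries against 7, 25 and 27 in cattle-yak. MRC1, the macrophage mannose receptor, had 1, 2 and 2 against 4, 4 and 4. Both were higher in all 3 cattle-yak libraries, while the levels of the other macrophage markers overlapped between the groups. Levels without overlap were found for 32.9% of genes tested, which CD163 and MRC1 were not. The summed level over all 8 was 8.59 to 35.0 CPM in yak and 22.5 to 78.4 CPM in cattle-yak. None was at or under 3 reads over all libraries, though CSF1R had 0 reads in yak 1 and in yak 2. The 8 endothelial markers summed to 39.1 to 59.3 CPM in yak and 45.3 to 88.5 CPM in cattle-yak, with CLDN5 at or under 3 reads over all libraries. Of these, VWF was not tested and had 3, 3 and 0 reads in the yak libraries against 9, 26 and 18 in cattle-yak. Its level was higher in all 3 cattle-yak libraries, and those of the other endothelial markers overlapped. The 7 smooth muscle markers summed to 185 to 215 CPM and 163 to 224 CPM. Of 7 tested fibroblast markers, COL1A2, COL3A1 and LUM fell, against 6.18% of all genes tested. The list of 8 summed to 469 to 579 CPM in yak and 244 to 448 CPM in cattle-yak. Of 7 adipocyte markers 4 were found, and these summed to 147 to 192 CPM and 89.7 to 141 CPM. Most of these sums was LPL, at 146 ± 22.3 CPM in yak and 87.0 ± 31.0 CPM in cattle-yak. Of the 3 adipocyte markers tested, CFD alone was higher in cattle-yak, and ADIPOQ, PLIN1 and LEP were not found. The part of these cell types in the CAPN2 and CAPNS1 levels was not tested.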

How the data were processed

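The deposited table holds, per the file headers, whole-number counts of reads for each transcript beside CPM values. The deposited CPM equalled counts over totals within 0.005. Libraries were made with a nanopore cDNA-PCR kit, per the labels' protocols. Among tools, fastp, minimap2 and GSNAP appear in the submitters' processing notes, with no version or role. Counting software and genome build: not given in the sources used here. Left out were 61 of 179856 transcripts, which lacked a gene identifier (up to 0.0025% of reads).

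Counts were summed by gene identifier. Both levels went through edgeR 4.0.16 in R 4.3.3 (filterByExpr, TMM, quasi-likelihood test, robust dispersion, Benjamini-Hochberg adjustment over all features), and transcript usage with diffSpliceDGE. Ratios were compared with exact permutation tests in scipy 1.17.1. Alternatives were DESeq2 1.42.0, limma 3.58.1 (voom), other scalings and filters, other ways of summing, a block for the replicate number and leaving each library out. A list gene needed its symbol on at least 50% of its symbol-bearing reads and 2% of all its reads.

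The members and lists were chosen with earlier results of these data known. The rule for named genes took the members, their transcripts at 5% or more of reads, and up to 3 genes per list by smallest p. Other called list genes, TNNT3, CD163, MRC1, VWF, the other cell type markers named, and the CAST and CAPN2 transcripts under 5% were named after their values were seen. The ratio to CAPN3 could not be formed, which left 5 ratios.

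On simulated counts over 7504 genes, edgeR found 40% of changes of 1 log2 unit and 91% of changes of 2, and 8.39% of its calls were false. For 15804 transcripts these were 17%, 77% and 10.5%. The usage test over 5047 genes found 34.5% of changes of 2 log2 units, with 5.48% of calls false. Intervals and SEs from edgeR rest on the spread between libraries. PCR copies of a cDNA cannot be told from separate molecules without molecular identifiers. Overlapping or copied genes can share reads.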

Additional observations from a re-analysis of the deposited data

How the results depend on the processing

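No alternative brought a calpain gene or transcript past the threshold. Only reference transcripts left no member to test. For the 4 genes, 62 values kept their direction and 1 turned, CAST with library size alone (0.036). For ratios to CAST, 41 kept it and 4 turned: CAPN1 without yak 3 (0.044) or cattle-yak 2 (0.048; range -0.52 to 0.048 without 1 library), and CAPN7 without yak 1 (-0.25) or cattle-yak 1 (-0.15; up to 0.84 without cattle-yak 3). For transcripts, 108 kept it and 2 turned, both TALONT001486427 of CAPNS1, without yak 3 (-0.084) or cattle-yak 3 (-0.03; up to 0.36 without yak 1). CAST usage passed with no minimum share (adjusted p = 0.015), the 1 call of a member under any alternative; the cause was not tested. Over all features, calls numbered 194 genes with reference transcripts only, which leave fewer genes to test, and 1651 transcripts with a mean of at least 10 CPM. Usage was called in 126 genes as reported, 273 at any share, 78 at 10% or more and 53 by Simes. Without 1 library they ranged from 544 to 997 genes, 2053 to 3006 transcripts and 49 to 103 usage genes. The replicate numbers did not pair the libraries (correlations of deviations from -0.04 to 0.02 over 3 pairs), and a replicate block gave CAPN2 a log2 fold change of 0.65 (adjusted p = 0.125) and called no member. Depth limits CAPN1 and CAPN7 most, with 126 and 32 reads in all.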
